A study of Mus musculus with 768 samples.

Results

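The glycolysis and hypoxia response genes are a set of 30 genes, taken by symbol from the 24490 gene entries of the deposited tables. They encode glucose and lactate transporters, the enzymes that take glucose to lactate, 3 regulators of the flux, the oxygen sensing machinery and 3 further genes that low oxygen is known to induce. All 30 symbols had an entry, and all 30 were above 0 in at least 3 wells. They were studied in NK cells that had infiltrated tumors of MTAP1A, a mouse fibrosarcoma line that lacks Tap1 and so has little MHC class I. The cells came from C57BL/6 WT mice and from PD-1-/- mice of the same strain, in which Pdcd1 is deleted in every cell of the host mouse rather than in NK cells alone. For each genotype the tumors of 3 mice were pooled, viable cells, gated as NK1.1+ and CD3- among other markers, were sorted 1 per well into 1 plate, and full-length cDNA was sequenced with SMART-SEQ2, which adds no molecular identifiers. Each genotype is thus 1 pooled sample on 1 plate: an effect of the genotype cannot be told apart from one of the plate. Because the cells of a plate share 1 source, genotypes were compared without a test.

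Glycolysis splits glucose into pyruvate in the cytosol, and lactate dehydrogenase then turns pyruvate into lactate so that the pathway can run without oxygen. The transcription factor HIF-1, a pair of HIF-1α (Hif1a) and ARNT, is marked for degradation by prolyl hydroxylases when oxygen is present, and in low oxygen it induces most glycolytic genes through sites with the core letters ACGTG or GCGTG. Activated NK cells are known to raise glycolysis, and solid tumors are often poor in oxygen and glucose.

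RPKM, the deposited unit, is a read count scaled to the length of the gene and to the depth of the well, so that levels can be compared between genes. A gene was called found in a cell when its RPKM was above 0, and wells with 1000 to 3500 found genes were kept, which left 726 of 768 wells, 360 of them WT and the rest PD-1-/-. The kept cells had a median of 2264.5 detected genes in WT and 2262.5 in PD-1-/-, and medians of 273835 and 291197 reads that could be recovered from the RPKM values. Plate row G was shallow on both plates, with medians of 87108 reads in WT and 117940 in PD-1-/-, against at least 241900 in each other row. Pdcd1, the targeted gene, was found in 9 WT cells (2.50%, exact 95% binomial interval 1.15 to 4.69) and in 47 PD-1-/- cells (12.8%, 9.59 to 16.7), at mean levels of 14.4 and 13.9 RPKM. The deletion takes out exons 3 and 4 and leaves the rest of Pdcd1 in place, so a value for the whole gene also counts transcript from the remaining exons and does not check the labels. Each of the 726 cells had at least 2 of 8 NK-like markers. This is a low bar, since Fcer1g was found in 100% of the WT and 99.7% of the PD-1-/- cells and Tyrobp in 98.1% and 94.3%. Ncr1 was found in 90.8% of the WT cells against 91.8%, and Eomes in 61.9% against 55.2%. The label was not tested cell by cell. Markers of T cells were nevertheless present although CD3+ cells had been gated out: 65 WT and 83 PD-1-/- cells had Cd3d, Cd3e or Cd3g. Among the other markers of the T-like list, Bcl11b was the most common, with a share of 4.72% on the WT plate against 6.01%. Shares of Cd8b1 (1.39% against 2.46%), Cd5 (1.11% against 1.91%) and Cd4 (0.833% against 1.09%) were also higher on the PD-1-/- plate. Those of Cd6 (2.22% against 1.91%) and Cd8a (1.94% against 1.91%) were not. Themis was found in 0 WT cells, which allows a share of up to 0.833%, and in 1 PD-1-/- cell.

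Promoters bear on these genes because HIF-1 acts at them. RefSeq start sites on GRCm38.p6 were listed for 29 of the 30 genes, and the 250 bases before each start were searched for ACGTG and GCGTG on both strands; the 2 words can overlap where they face each other, as in CACGTG. At least 1 start of 27 of the 29 genes (93.1%) had a match, against 41.5% of all 27025 genes with a listed promoter and 65.3% of the 5169 genes found in at least 10% of the kept cells. The exceptions were Gpi1 and Tpi1. A gene with more listed starts has more chances of a match. By start, 81.4% of the 43 starts of the members had a match, against 38.6% of all starts and 59.1% of those of the genes found in at least 10% of the cells. The set was drawn from pathways that HIF-1 is known to induce, so its share of matches is not independent of how it was chosen. The upstream bases are printed for the 5 genes that stood in the strongest pairs of coexpressed members (described further on) and had a single listed start, 5′ to 3′ on the gene's strand, with matches in capitals. They lie at chr6:125165774-125166023 (Gapdh, minus strand), chr10:78009808-78010057 (Pfkl, minus strand), chrX:106186850-106187099 (Pgk1, plus strand), chr4:119108495-119108744 (Slc2a1, plus strand) and chr6:124814159-124814408 (Tpi1, minus strand).
Gapdh: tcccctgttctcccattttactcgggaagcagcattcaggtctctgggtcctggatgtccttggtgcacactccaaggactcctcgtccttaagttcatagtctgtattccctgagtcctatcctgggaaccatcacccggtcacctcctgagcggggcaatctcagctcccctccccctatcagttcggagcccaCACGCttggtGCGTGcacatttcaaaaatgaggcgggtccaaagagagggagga
Pfkl: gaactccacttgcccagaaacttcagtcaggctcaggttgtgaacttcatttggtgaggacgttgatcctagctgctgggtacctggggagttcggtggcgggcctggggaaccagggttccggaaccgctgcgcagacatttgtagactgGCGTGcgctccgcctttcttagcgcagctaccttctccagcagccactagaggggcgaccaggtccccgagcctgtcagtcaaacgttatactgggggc
Pgk1: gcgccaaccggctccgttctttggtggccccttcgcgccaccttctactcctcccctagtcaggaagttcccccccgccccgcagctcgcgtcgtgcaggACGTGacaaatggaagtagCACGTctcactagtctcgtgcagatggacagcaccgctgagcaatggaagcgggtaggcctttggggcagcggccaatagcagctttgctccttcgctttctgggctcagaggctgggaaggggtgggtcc
Slc2a1: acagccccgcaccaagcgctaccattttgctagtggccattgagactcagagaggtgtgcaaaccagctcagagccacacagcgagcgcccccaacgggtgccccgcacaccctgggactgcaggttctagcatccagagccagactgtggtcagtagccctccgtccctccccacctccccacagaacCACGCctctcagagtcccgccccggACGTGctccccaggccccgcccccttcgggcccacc
Tpi1: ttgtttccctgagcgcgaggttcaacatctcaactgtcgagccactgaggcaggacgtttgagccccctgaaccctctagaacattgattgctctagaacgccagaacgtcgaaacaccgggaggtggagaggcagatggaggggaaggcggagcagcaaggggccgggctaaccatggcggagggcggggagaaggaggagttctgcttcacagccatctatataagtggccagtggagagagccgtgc
Gapdh, Pgk1 and Slc2a1 had 2 matches each, Pfkl had 1 and Tpi1 had 0. CG pairs, which the core letters contain, had a median of 14 per start of the members, 6 over all 32851 starts and 17 over the starts of genes found in at least 10% of the cells. A match describes the letters only, and its part in the values given here was not tested.

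Slc2a1 (GLUT1), the common glucose transporter of activated lymphocytes, was found in 40.3% of WT cells (35.2 to 45.5) against 33.9% of PD-1-/- cells (29.04 to 38.98). Its RPKM ranged from 0 over a median of 0 to 1238 in WT and to 969 in PD-1-/-. Slc2a3 (GLUT3), a transporter with higher affinity for glucose, showed the opposite order, with 23.6% of the WT plate (19.3 to 28.3) against 31.97% of the PD-1-/- plate (27.2 to 37.01). Intervals cover counting error only, and those of both transporters overlapped between the genotypes. The mean RPKM of Slc2a3 was 30.6 in WT and 52.8 in PD-1-/-, a log2 ratio of 0.77 on the log2(mean RPKM + 1) scale that is used for all ratios here; it was 1.23 in the upper plate rows (A to H) and 0.28 in the lower ones (I to P). The lactate carriers were less common: Slc16a1 (MCT1) was found in 27 and 37 cells, and Slc16a3 (MCT4), which is known for lactate export, in 10.8% and 10.7%.

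Both glucose transporters were seldom seen in the same cell. Slc2a1 alone was found in 31.9% of the WT and 23.5% of the PD-1-/- plate, Slc2a3 alone in 15.3% and 21.6%, both in 30 and 38 cells, and neither in 44.4% and 44.5%. Cells with Slc2a1 had Slc2a3 about as often as cells without it: 20.7% against 25.6% in WT and 30.6% against 32.6% in PD-1-/-. The 2 transporters of lactate were found together in 2 WT and 5 PD-1-/- cells.

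In the upper steps of glycolysis, Aldoa (aldolase A) had the highest level of all 30 genes. It was found in 90.6% of the WT plate and 93.2% of the other, with values from 0 over a median of 587 to 4007 RPKM in WT and from 0 over 576 to 5758 in PD-1-/-. Its mean was 750.4 RPKM in WT and 758 in PD-1-/-, a log2 ratio of 0.01, so that the groups lay on top of each other. Gpi1, which turns glucose 6-phosphate into fructose 6-phosphate, had means of 179.6 and 176.4 RPKM, and Tpi1, which interconverts the products of the aldolase step, had 263.8 and 248.8. Hexokinases, which trap glucose in the cell, were found less often: Hk1 in 27.2% and 33.3% of the cells, and Hk2, the form that HIF-1 is known to induce, in 7.78% and 6.56% at a mean of 0.838 and 1.13 RPKM. Cells with Hk2 held a median of only 4.5 recovered reads of Hk2, so that its absence from a cell was not detectable at this depth.

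The isoenzymes showed one leading form at most steps. Of the phosphofructokinases, the committed step, Pfkp (platelet form) was found in 64.7% and 63.4% of the cells at 151.1 and 143.7 RPKM, Pfkl (liver form) in 31.7% and 27.05% at 43.8 and 43.5 RPKM, and Pfkm (muscle form) in 6.39% and 7.10% at 2.63 and 5.07 RPKM. Pfkp was the only one found in 38.9% of the WT and 40.98% of the PD-1-/- plate, against 27 and 26 cells for Pfkl. Aldoc was found in 22 WT and 16 PD-1-/- cells, of which 19 and 16 had Aldoa, a gene that most cells had. In WT, Aldoc was in 5.83% of the cells with Aldoa and in 8.82% of those without it. In PD-1-/- these shares were 4.69% and 0%. Of the lactate dehydrogenases, Ldha was found in 83.9% and 86.1% of the cells, while Ldhb, the form known to favor the reverse reaction from lactate to pyruvate, was found in 1 WT and 4 PD-1-/- cells. Hk1 without Hk2 occurred in 25.3% of the WT and 29.8% of the PD-1-/- plate and Hk2 without Hk1 in 21 and 11 cells.

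In the lower steps, Ldha (lactate dehydrogenase A) came second to Aldoa, with values from 0 over a median of 405 to 5677 RPKM in WT and from 0 over 432 to 3484 in PD-1-/-, and means of 511 and 508. Pkm (pyruvate kinase) was found in 84.4% and 85.2% of the cells at means of 177.7 and 191.8 RPKM. Gapdh was found in more cells than any other member, 92.8% and 95.1%, but at means of only 38.4 and 39.9 RPKM, and the cells with it held a median of 14 recovered reads. Pgk1 (phosphoglycerate kinase), Pgam1 (phosphoglycerate mutase) and Eno1 (enolase) were lower still, at 11.03 and 12.2, 3.21 and 2.88, and 36.2 and 29.4 RPKM. Gapdh, Pgk1, Pgam1 and Eno1 have near-identical processed pseudogenes, whose reads the counting could have split off or left out, so the level of these genes against the others is uncertain.

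Pgk1 was the 1 member whose counting intervals for the share of cells did not overlap between the WT and PD-1-/- plates. The WT share was 54.2% (48.9 to 59.4) and the PD-1-/- share 68.6% (63.6 to 73.3). Over the 12030 genes that reached a mean of 1 RPKM on a plate, the intervals were apart for 0.565% with the higher share in PD-1-/- and for 0.590% with the lower, against 1 and 0 of the 30 members. The log2 ratio of the means was 0.14, and the median over cells with Pgk1 was 15.9 RPKM in WT and 13.8 in PD-1-/-. The share was 51.1% against 67.9% in the upper rows and 57.1% against 69.2% in the lower rows, where the intervals overlapped, and 51.1% against 62.4% when each cell was thinned to 100000 recovered reads, which left out 31 WT and 15 PD-1-/- cells. At a limit of 10 RPKM the shares were 39.4% and 43.4%, with overlapping intervals. Cells with Pgk1 held a median of 9 recovered reads of Pgk1, and the part of depth, which was higher on the PD-1-/- plate, was not tested beyond the thinning. Without the cells with Cd3d, Cd3e or Cd3g the shares were 55.3% and 68.2%, and without plate row G they were 53.9% and 69.6%, again with intervals apart.

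The regulators of the flux were found in fewer cells. Pfkfb3, whose product makes the activator of phosphofructokinase, was found in 20.3% and 18.03% of the cells, and Pfkfb4 in 2.78% and 1.64%. Pdk1, which encodes a kinase that inhibits pyruvate dehydrogenase, was found in 17.2% and 19.1% at means of 13.7 and 14.1 RPKM. Of the oxygen sensing genes, Hif1a was found in 36.9% and 39.1% of the cells, with maxima of 581 and 392 RPKM and means of 33.5 and 41.8, and its partner Arnt in 17.8% and 20.8%. The prolyl hydroxylase Egln1 (PHD2) was found in 11.1% and 9.02% and Egln3 (PHD3), itself a HIF target, in 9 WT and 16 PD-1-/- cells. Among the other hypoxia targets, P4ha1, which modifies collagen, was found in 21.7% and 15.8%, the mitophagy receptor gene Bnip3 in 8.61% and 11.2%, and Vegfa, the growth factor for blood vessels, in 34 WT (9.44%) and 20 PD-1-/- cells (5.46%).

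**Figure D1:**
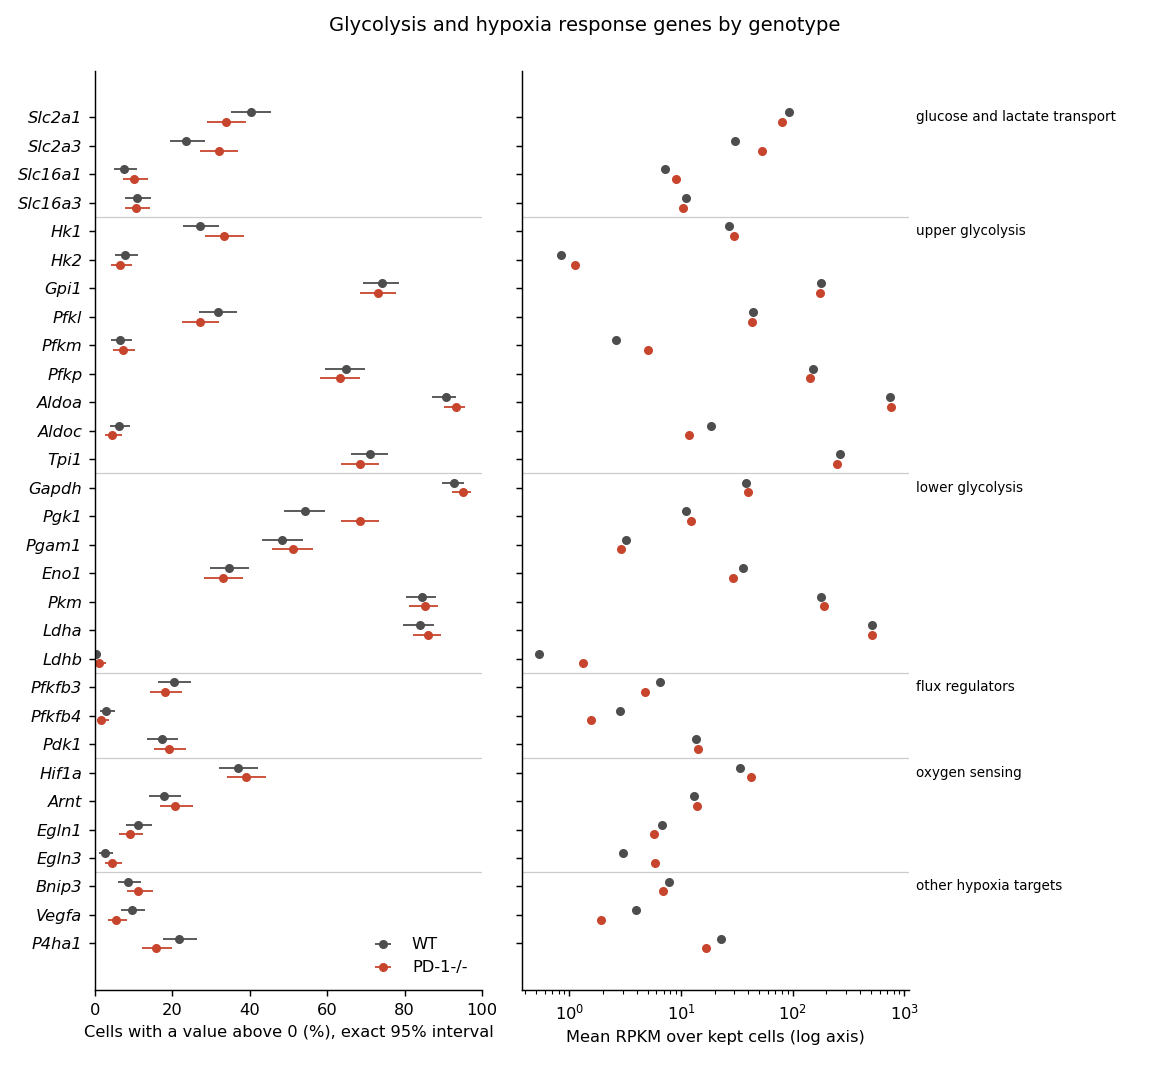
Share of kept cells with a value above 0 (left, percent, bars are exact 95% binomial intervals) and mean RPKM over kept cells (right, log axis) of each of the 30 genes on the plates of WT (gray) and PD-1-/- (red), in blocks by role. The shares run from 0.278% (Ldhb, WT) to 95.1% (Gapdh, PD-1-/-), and the intervals part for Pgk1, as they do for 0.565% of 12030 genes on the same side.

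Past a 1.5-fold difference in mean RPKM, 4 of the 30 genes were higher in the PD-1-/- cells (Slc2a3, Pfkm, Ldhb and Egln3) and 3 were lower (Aldoc, Pfkfb4 and Vegfa). Over all 12030 genes whose mean reached 1 RPKM in a genotype, 10.96% were past this fold on the higher and 13.99% on the lower side, so the 13.3% of the members on the higher side and the 3 on the lower lay near the background. The median log2 ratio was -0.01 over the members and -0.03 over all these genes. With all 768 wells kept, both counts were 1, while 10.5% of all genes were past the fold on the higher and 16.6% on the lower side. Of the 7, all but Slc2a3 were found in under 10% of the cells. The sign of the ratio was the same in the upper and the lower plate rows for 13 of the 30 members. The share over all genes was not taken, so this count has no background beside it. Egln3 was found in 9 WT and 6 PD-1-/- cells of the upper rows, but in the lower rows it was listed at 0 in each WT cell (interval up to 2.01%) and found in 10 PD-1-/- cells. The ratio of Vegfa turned from -2.02 in the upper to 0.54 in the lower rows.

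Most of the abundant enzymes had nearly the same mean in both genotypes. The log2 ratios of Aldoa, Ldha, Pfkl and Gpi1 lay between -0.03 and 0.01, those of Tpi1, Pfkp, Gapdh, Pkm, Pgam1 and Pgk1 between -0.12 and 0.14. Eno1 was lower in PD-1-/-, with a log2 ratio of -0.29. Without the cells with Cd3d, Cd3e or Cd3g, whose number differed between the plates, the ratio of Slc2a3 was 0.93 and that of Aldoa -0.03. Cycling-like markers differed between the plates as well: 69 WT and 95 PD-1-/- cells had at least 1 of Mki67, Top2a, Birc5, Ccna2 and Cdk1. Of these, Top2a (8.06% and 7.92%) and Birc5 (2.50% and 2.46%) were about as common on both plates, while Mki67, Ccna2 and Cdk1 were more common in PD-1-/-. At least 1 of 5 myeloid-like markers was found in 47 WT and 26 PD-1-/- cells, with summed levels of 0 to 1438 and 0 to 1649 RPKM, and at least 1 of 4 fibrosarcoma-like markers in 21 and 11 cells, with Col1a2 at 0 in PD-1-/-. The median summed level of each of these lists was 0. Their part in the ratios was not tested.

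The other genes of the same pathways, from lists that do not overlap with the 30, were read against the same 10.96% higher and 13.99% lower of all genes. Of 28 further genes of glycolysis and pyruvate use, 20 reached a mean of 1 RPKM, of which 2 were higher (Pfkfb1 and Pdk2) and 5 lower (Pfkfb2, Bpgm, Ldhc, Slc2a6 and Slc2a9) past 1.5-fold, Ldhc being listed at 0 in PD-1-/-; these and the genes named next were picked out after their values were seen. Slc2a6, a glucose transporter of the lysosome, was the most common of them, in 17.8% of the WT and 11.2% of the PD-1-/- plate. Of 26 further hypoxia response genes 22 were compared, with 2 higher (Vhl, which recruits HIF-1α for degradation, and Car12) and 2 lower (P4ha2 and Hilpda). Hilpda, a lipid droplet gene, was found in 17.5% and 12.8% of the cells. None of 21 genes of the tricarboxylic acid cycle and pyruvate dehydrogenase was past the fold in either direction, and of 30 genes of oxidative phosphorylation only Cycs was, on the lower side. Of 16 growth signaling genes Prkaa1, a subunit of the energy sensor AMPK, was higher and Tsc1 lower.

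A score was made for each cell as the mean of ln(RPKM + 1) over the 30 genes. It ranged from 0.177 over a median of 1.45 to 3.79 in WT cells and from 0.207 over 1.46 to 3.63 in PD-1-/- cells. The means were 1.507 ± 0.554 (SD over 360 cells) and 1.511 ± 0.512 (SD over the PD-1-/- cells), a difference of 0.00373, or 0.00700 SD of the score, and the genotypes overlapped over nearly their whole range. The median cell had 10 of the 30 genes in both genotypes, with a range of 2 to 23 in both. Cells with Cd3d, Cd3e or Cd3g had a mean score of 1.530 against 1.502 in the other cells in WT, and of 1.610 against 1.482 in PD-1-/-. Within the 3 bins of detected genes described further on, their score was higher in 4 of 6 comparisons, by a mean of 0.00419, and 35 of the 83 such PD-1-/- cells lay in the highest bin. By plate row, the mean score was higher in PD-1-/- in 8 of 16 rows. Across rows the mean score ran from 1.19 (row G) to 1.81 (row A) in WT. In PD-1-/- it ran from 1.31 (row G) to 1.66 (row O). A row holds far fewer cells than a plate, so its mean varies more by sampling, and the spread of rows was not compared with that of the plates.

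**Figure D2:**
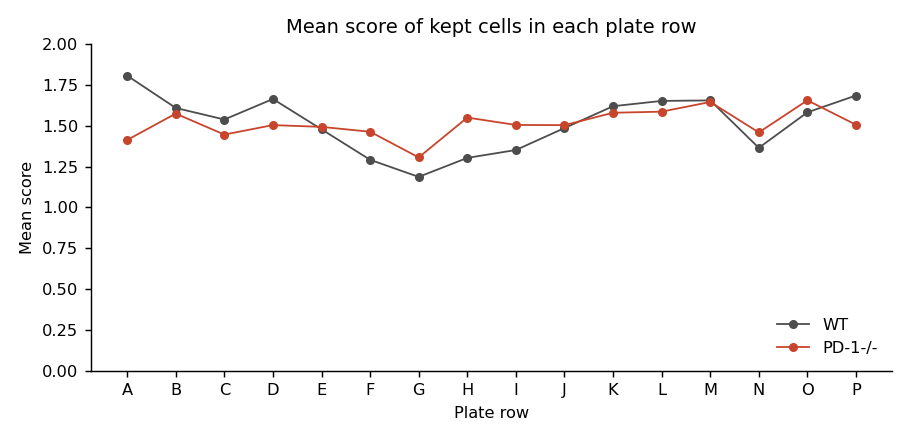
Mean score of the kept cells in each of the 16 plate rows, for WT (gray) and PD-1-/- (red); each point is a row of 17 to 24 cells. The lines cross repeatedly, and row G, the row with the fewest reads, is the lowest on both plates.

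The score followed the number of detected genes. Spearman's rho was 0.63 over the 360 WT cells and 0.59 over the PD-1-/- cells, and Pearson's r was 0.63 and 0.55. These are descriptions across cells, which share a plate and a pool and in which both measures depend on depth. In 3 equal bins of detected genes, from low to high, the median score was 1.14, 1.41 and 1.85 in WT and 1.16, 1.42 and 1.80 in PD-1-/-, while the median number of members found was 7, 10 and 12 in WT and 8, 10 and 13 in PD-1-/-. The relation was seen for other lists as well. A score over 30 genes of oxidative phosphorylation gave rho values of 0.72 and 0.74, one over 21 genes of the tricarboxylic acid cycle 0.64 and 0.70, and one over 30 ribosomal protein genes 0.48 and 0.52. With each cell thinned to 100000 recovered reads, the values for the 21 members with recovered reads were 0.52 and 0.48. This score lacked Ldha and Pkm among others, and the 21 members were not scored without thinning. Thinned values were 0.73 and 0.72 for oxidative phosphorylation, 0.65 and 0.72 for the tricarboxylic acid cycle and 0.44 and 0.46 for ribosomal protein genes. These lists also kept only genes with recovered reads.

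**Figure D3:**
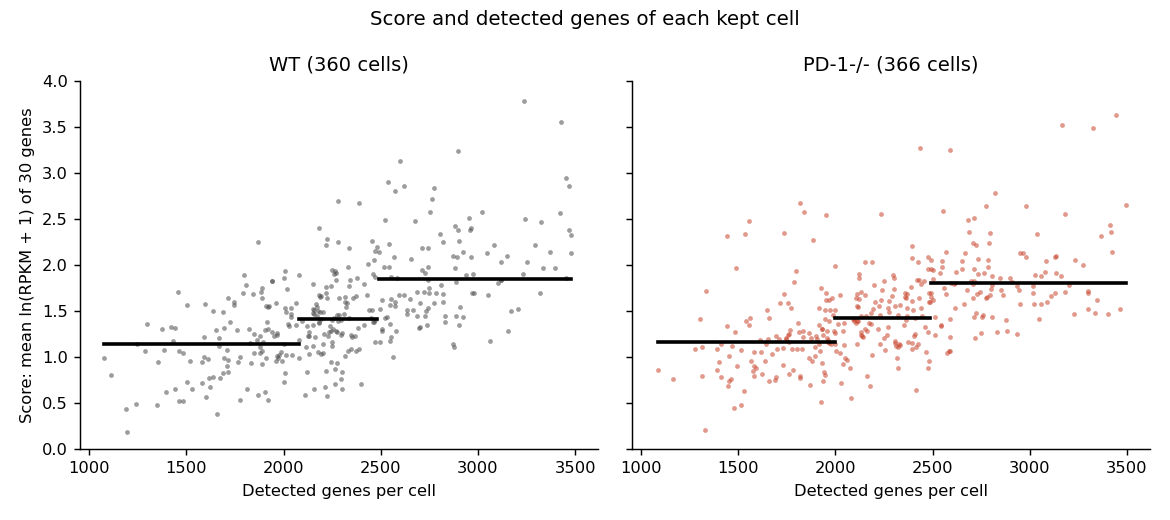
Score (mean ln(RPKM + 1) of the 30 genes) of each kept cell against its detected genes, for WT (left) and PD-1-/- (right); black bars mark the median score in each of 3 bins of detected genes. The bars step up from 1.14 to 1.85 in WT and from 1.16 to 1.80 in PD-1-/-.

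Of 21 members found in at least 10% of the cells, 7 had a rho above 0.2 with detected genes in both genotypes (Gapdh, Ldha, Pkm, Tpi1, Gpi1, Pgk1 and Pgam1), against 6.45% of 6727 genes tested alike. The highest values were those of Ldha (0.45 in WT and 0.42 in PD-1-/-) and Gapdh (0.42 and 0.38). Slc2a3 (0.09 and 0.06) and Pfkfb3 (0.12 and 0.09) were near the low end. The median over the 21 members was 0.24 and 0.18, and over all genes 0.12 and 0.13. The members and all genes were not matched for level.

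The next question was whether cells with the cytotoxic granule protease Gzmb, its relative Gzmc or the cytokine gene Ifng had more of the glycolysis and hypoxia transcripts. Cells with Gzmb also had more detected genes, with medians of 2293 against 2156 in WT and 2298 against 2115 in PD-1-/-, so the score was compared within the 3 bins of detected genes of each genotype, 6 strata in all. Gzmb was found in 81.9% of the WT plate (77.6 to 85.8) and 86.6% of the PD-1-/- plate (82.7 to 89.9). Some of these cells held under 10 RPKM of Gzmb. There were more of them on the PD-1-/- plate, so the shares of the plates lay closer at that limit. The score was higher in cells with Gzmb in 6 of 6 strata, by 0.24, 0.15 and 0.22 in WT and by 0.14, 0.13 and 0.08 in PD-1-/- from the lowest to the highest bin. The mean of the 6 differences was 0.30 SD of the score. With Gzmb counted from 10 RPKM it was 0.32 SD, and the score was again higher in 6 of 6 strata. In the upper plate rows only 2 strata held at least 10 cells on each side, and their mean was 0.49 SD. Cells with Gzmb still had more detected genes in 5 of the 6 strata. Spearman's rho between score and Gzmb was 0.26 in WT and 0.0987 in PD-1-/-, and 0.28 and 0.18 after the line on detected genes was taken out of both.

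By member, 3 of 21 were higher in cells with Gzmb in every stratum, Pkm, Pfkp and Pfkfb3, against 3.69% of 6726 genes, and 0 were lower in every stratum, against 1.67%. The mean difference in ln(RPKM + 1) was 0.71 for Pkm, with strata from 0.03 to 1.61, 0.68 for Pfkp (0.23 to 1.25) and 0.11 for Pfkfb3 (0.04 to 0.20). Tpi1 (0.63), Gapdh (0.52) and Aldoa (0.51) had mean differences of like size, higher in 5, 5 and 4 strata. Pdk1 went the other way, with a mean of -0.36 and a higher level in 2 of 6 strata. The median over the 21 members was 0.18, and over all genes 0.03. Among the roles, lower and upper glycolysis were each higher with Gzmb in 6 of 6 strata, by 0.28 and 0.23. Glucose and lactate transport was higher in 4 of 6, by 0.14. Oxygen sensing was higher in 5 of 6, by 0.05, and the other hypoxia targets in 4 of 6, by 0.08. The flux regulators were higher in 3 of 6, with a mean of -0.07. A score of oxidative phosphorylation genes was higher in 6 of 6, by 0.17. The score of the tricarboxylic acid cycle was higher in 3 of 6, by 0.06. The ribosomal score was higher in 2 of 6.

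For Gzmc, found in 32.2% of the WT plate (27.4 to 37.3) and 22.95% of the PD-1-/- plate (18.7 to 27.6), most of the raw difference went with the number of detected genes. Cells with Gzmc had 0.29 more of the score in WT and 0.20 more in PD-1-/-, and medians of 2536 against 2188 and 2498.5 against 2154 detected genes. Within the strata the score was higher in 5 of 6, by a mean of 0.16 SD. It was higher in 3 of 6, by 0.0565 SD, in wells with 1500 to 3000 detected genes, and in 1 of 3 in the upper plate rows. Some of the cells with Gzmc held under 10 RPKM of it. With Gzmc counted from 10 RPKM, the score was higher in 4 of 5 strata, by 0.18 SD. Cells with Gzmc still had more detected genes in each of the 6 strata. After the line on detected genes was taken out, the difference was 0.01 in WT and 0.00283 in PD-1-/-, and rho was 0.08 and -0.02. Among the members, Pgk1 alone was higher in every stratum (mean 0.26, lowest 0.00435), against 2.60% of all genes, and 0 were lower, against 1.38%. Gzmc is nearly identical to neighboring granzyme genes, so its counts are uncertain.

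Ifng, found in 25.8% of the WT plate (21.4 to 30.7) and 31.1% of the PD-1-/- plate (26.4 to 36.2), showed no common direction. The score was higher in cells with Ifng in 3 of 6 strata, and the differences ran from -0.12 to 0.13 with a mean of 0.00750 SD. None of the 21 members was higher in every stratum and none lower, against 1.38% and 1.84% of all genes. The median difference was 0.04 over the members and -0.000243 over all genes. Of the 2 other effector genes, Prf1 (perforin) was found in 88.6% and 89.6% of the cells. The score was higher with Prf1 in 5 of 5 strata with at least 10 cells on each side, but cells with Prf1 also had more detected genes in each of these strata. After the line on detected genes was taken out, the difference was 0.0172 in WT and 0.0292 in PD-1-/-. For Gzma, found in 89.7% and 89.3%, the score was higher in 3 of 5 strata.

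**Figure D4:**
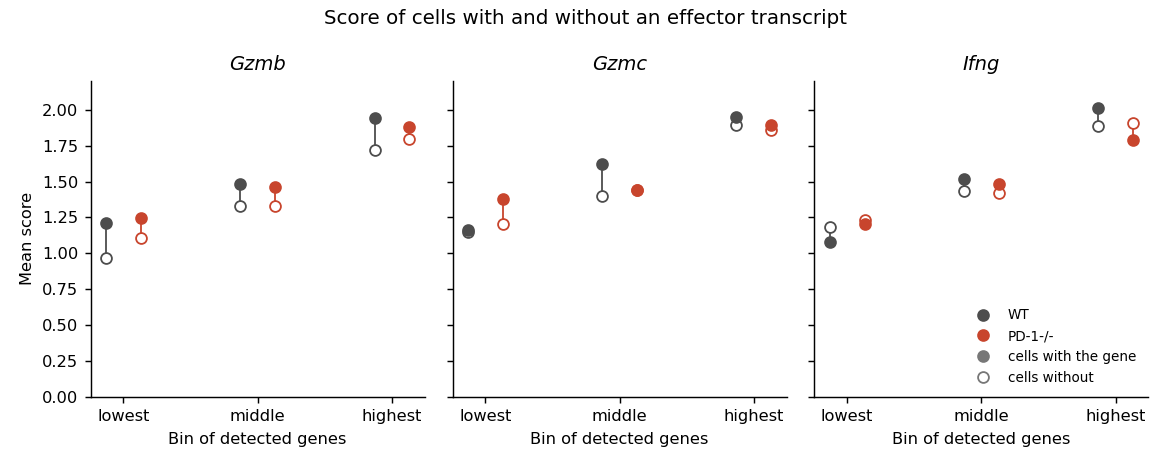
Mean score of cells with (filled) and without (open) Gzmb, Gzmc or Ifng in the lowest, middle and highest bin of detected genes, for WT (gray) and PD-1-/- (red). For Gzmb all 6 filled points lie above the open ones, by 0.08 to 0.24, while for Ifng they do in 3 of 6.

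Coexpression among the members was weak and uneven. For the 15 members found in at least 20% of the cells, rho was taken over each pair after the line on detected genes was taken out within genotype. The median over pairs was 0.11 in WT and 0.12 in PD-1-/- cells, 98 pairs (93.3%) were above 0 in both genotypes and 8 above 0.2 in both. Without the line taken out the medians were 0.15 and 0.13, 91 pairs were above 0 in both genotypes and 26 above 0.2 in both. The 8 pairs were Aldoa with Gapdh (0.33 in WT and 0.39 in PD-1-/-), Pkm (0.38 and 0.29), Tpi1 (0.24 and 0.27) and Pgk1 (0.25 and 0.22), Gapdh with Pkm (0.30 and 0.36), Pgk1 (0.27 and 0.22) and Tpi1 (0.20 and 0.32), and Slc2a1 with Pfkl (0.21 and 0.35). Slc2a1 with Pfkl was at 0.13 and 0.25 without the line taken out, so this pair passed 0.2 in WT only with it, while the other 7 passed 0.2 in both genotypes either way. Those 7 joined enzymes of the stretch from aldolase to pyruvate kinase. In cells without a gene the residual depends on detected genes alone, so pairs of genes with many zeros can gain rho from it. Slc2a3 with Hk1, for example, was at -0.007 and 0.0005 without the line taken out and at 0.23 and 0.15 with it. The part of this in the 98 pairs was not tested. Pairs of other genes were not taken, so the counts of pairs have no background beside them. The genes of the 7 pairs were not matched with others for the share of cells they were found in.

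Against the mean of the other 14, Aldoa was highest (0.40 in WT and 0.41 in PD-1-/-), followed by Gapdh (0.35 and 0.33), Pkm (0.27 and 0.23) and Pgam1 (0.23 and 0.25). Hif1a was at 0.09 and 0.05, Slc2a1 at 0.06 and 0.04, Hk1 at -0.01 and 0.03 and Slc2a3 at -0.02 and -0.07, which put the transporters, hexokinase and the HIF subunit at the low end. Ldha was at 0.27 in WT and 0.09 in PD-1-/-, and this difference was not tested. These values share the depth of each cell and the many zeros of genes found in few cells.

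**Figure D5:**
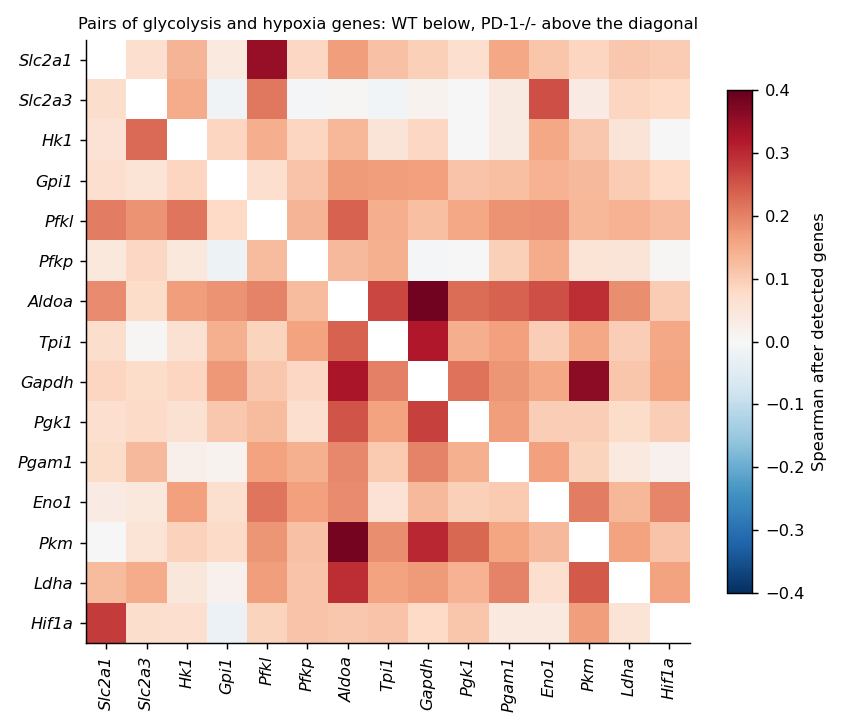
Spearman's rho between the 15 members found in at least 20% of the cells, after regression on detected genes, with WT below and PD-1-/- above the diagonal; axes are genes ordered by role and color gives rho from -0.4 to 0.4. The rows of Aldoa and Gapdh are among the darkest, with Aldoa and Gapdh at 0.33 in WT and 0.39 in PD-1-/-.

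Outside the set, 3982 genes found in at least 20% of the cells were ranked by the smaller of the 2 genotypes' rho with the score, after detected genes. The first 10 were Mif (0.24 in WT and 0.26 in PD-1-/-), Eef1a1 (0.23 and 0.19), Gzmb (0.28 and 0.18), Litaf (0.20 and 0.18), 2410006H16Rik (0.18 and 0.17), Crem (0.19 and 0.16), Dennd4a (0.16 and 0.17), Rps7 (0.16 and 0.17), Rplp0 (0.19 and 0.16) and Tigit (0.17 and 0.15). Mif encodes a cytokine, Eef1a1 an elongation factor, and Rps7 and Rplp0 ribosomal proteins, genes that also have many pseudogenes. Gzmb ranked 3, Prf1 471, Gzmc 1890, Ifng 2357 and Gzma 3677. The median of the smaller rho over all 3982 genes was -0.02.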

How the data were processed

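The deposited tables hold RPKM values per gene and well, made by the authors from SMART-SEQ2 reads of 1 plate per genotype; the submitters' processing notes name TopHat and Cufflinks and the builds mm9 and mm10, with no role or version. The labels give 382 sorted cells, against 384 wells per genotype, and no 2 wells held identical values. Genes above 0 in at least 3 of the 768 wells were counted as detected (14761 entries), and wells with 1000 to 3500 detected genes were kept; no doublet caller was run on the sorted wells. Where a symbol stood on several entries, the first was used.

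To learn the depth, RPKM values were turned back into reads for 9513 genes, 21 members among them, from the step that 1 read is worth. Of 694598 low values (up to 60 reads) 98.98% came out whole, at a tolerance of 0.0003 of the value, and 582 genes whose step was more than 3-fold off their annotated length were left out. Kept cells had 1175 to 426535 recovered reads in WT and 1712 to 486554 in PD-1-/-. They served to measure depth and to thin cells, and entered no test.

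Ratios are log2 of mean RPKM plus a pseudocount of 1. With 1 pooled sample per genotype no count model or test was run; shares carry exact Clopper-Pearson 95% intervals, which cover counting error only, as do the limits of 3 counts for a share of 0. Strata are 3 equal bins of detected genes within genotype with at least 10 cells on each side. Spearman values after detected genes were taken on the residuals of a line fitted within genotype, which order the cells without a gene by their detected genes. Genes named are the members, 5 effector genes, markers of cell types, genes of the other pathway lists where they reached 20% of the cells (here only Prkaa1 is given), and the 10 other genes most alike to the score. Further genes are said to have been picked later. The members and lists were chosen with earlier results of these data known. The alternatives were other cell filters, plate rows, thinning, scaling, pseudocounts and limits for a found gene. Python 3.11.15, numpy 2.4.6, pandas 2.3.3, scipy 1.17.1 and matplotlib 3.10.9 were used, and the scripts were tested on simulated data.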

Additional observations from a re-analysis of the deposited data

How the results depend on the processing

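Of the alternative values of the main results, 17 moved past a set margin (0.1 SD of the score, 0.1 of a correlation, 1.5-fold of a count) and the others stayed within it; the causes were not tested. With thinned reads and 21 members, rho between score and detected genes was 0.52 in WT and 0.483 in PD-1-/-. The score difference with Gzmb was 0.49 SD in plate rows A to H, over 2 strata in place of 6, and that with Gzmc 0.0565 SD in wells with 1500 to 3000 detected genes (3 of 6 strata higher). Members past 1.5-fold higher in PD-1-/- numbered 1 with all wells kept, 2 in rows I to P, 2 after thinning and 1 with a pseudocount of 10. Of all genes, 10.5%, 20.7%, 10.3% and 1.08% were past the fold on this side under the same settings. Thinning left 20 members to compare. Members past 1.5-fold on the lower side numbered 1 with all wells kept, 0 without rows A and B and 1 after thinning. They numbered 1 with RPKM scaled to the same total and 0 with a pseudocount of 10. Of all genes, 16.6%, 11.7%, 8.63%, 12.7% and 1.20% were past the fold on this side under these settings in turn. Counting a gene as found from 10 RPKM, cells with both Hk1 and Hk2 made up 0% in WT and 0.546% in PD-1-/-, those with at least 2 of Pfkl, Pfkm and Pfkp 18.1% in WT, and those with both Pfkfb3 and Pfkfb4 0% in PD-1-/-. Over all genes the share past 1.5-fold was 13.9% higher and 25.3% lower in rows A to H, against 20.7% and 14.3% in rows I to P. For single members, 30 alternative ratios, of 17 members, had the other sign. They included 14 members that were not past 1.5-fold, such as Bnip3 (-0.15, but 0.56 in rows A to H) and Slc16a1 (0.29, but -0.31 in rows I to P), and 3 of the 7 that were: Ldhb was -0.0571 and Vegfa 0.54 in rows I to P, and Egln3 was -0.46 in rows A to H. Leaving out plate row G was chosen after seeing the data. No paired analysis was possible because the numbers in the titles only name wells and the results come from no test. Members with few reads per cell, such as Pgam1 and Hk2, are limited by depth.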
